A study of Rattus norvegicus with 12 samples.

Results

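A set of 10 genes that switch MAP kinase signalling off again were followed through the striatum of rats with a one-sided dopamine lesion: the dual-specificity phosphatase genes Dusp1, Dusp2, Dusp4, Dusp5, Dusp6 and Dusp14, the Sprouty genes Spry1, Spry2 and Spry4, and Spred1. They were chosen by name, with earlier results of these data already known. Every probe whose accession maps to one of these symbols was taken. Of the 10 genes, 9 were matched, by 10 of the 30367 distinct probes on the arrays. Spry4 had 2 probes and each other matched gene had 1. No probe was matched to Spry1, which is not analysed here. All 10 probes passed the filter on low signal, so 9 of the 19412 tested features belong to these genes.

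RNA came from the striatum of male Wistar rats on 12 single-colour Agilent arrays, 3 for each of 4 groups, and 3 animals were assigned to each group. The first group (called the zonisamide group) was lesioned striatum of rats given both L-DOPA, 100 mg/kg, and zonisamide, 50 mg/kg. The second (the L-DOPA group) was lesioned striatum of rats given the same L-DOPA dose alone, the third lesioned striatum of rats given saline, and the fourth the opposite, non-lesioned striatum of rats given saline. Treatment was once daily for 7 days. L-DOPA, the precursor of dopamine, followed benserazide, which blocks its conversion outside the brain. Zonisamide, an anticonvulsant that is also prescribed for Parkinson's disease, followed L-DOPA by 30 min. Every rat, those of the saline groups included, had received 6-hydroxydopamine in the left medial forebrain bundle and a methamphetamine test at 3 mg/kg, and had turned at least 7 times per minute in it. The non-lesioned side is therefore the other hemisphere of a lesioned rat and not the striatum of an intact animal. Whether both saline groups come from the same rats is not in the labels, and the lesion comparison was fitted unpaired. The interval between the last dose and dissection is not given in the sources used here.

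MAP kinases relay signals from growth factor and neurotransmitter receptors, and in spiny neurons of the striatum, the ERK branch is known to respond to dopamine D1 receptor stimulation when dopamine input has been lost. Dual-specificity phosphatases remove the activating phosphates from MAP kinases. Sprouty and Spred proteins act further up, between receptor and Raf. Many of these genes are themselves switched on by the kinases they restrain, which makes their transcripts known feedback readouts of the pathway.

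Signals below are on the log2 scale with the array's own 75th percentile set to 0, so a difference of 1 is a 2-fold change. That percentile lay between 793 and 1737 intensity units, and 67.7% to 74.0% of probes per array exceeded background clearly. All 9 listed markers of striatal spiny neurons were tested, with a summed level on the log2 scale of 7.09 to 7.66 over the 12 arrays. Of 4 markers of cortical neurons 1 was tested, Neurod6, at -2.71, -6.91 and -5.80 in the zonisamide group, -2.50, -6.20 and -6.23 in the L-DOPA group, -5.56, -4.04 and -6.27 in lesioned saline, and -6.39, -6.35 and -6.94 in non-lesioned saline. Replicate 1 of both drug groups thus stood above the other 10 arrays for it. The summed level of 6 choroid plexus markers differed widely: it was 2.77 to 6.75 in the zonisamide group, 4.34 to 7.38 in the L-DOPA group, -0.32 to 4.38 in lesioned saline and 2.39 to 7.00 in non-lesioned saline. RNA of whole tissue was measured, so fewer cells of a type and less RNA per cell cannot be told apart. With 3 arrays per group, p-values set a difference only against the spread between these arrays, pooled over the 4 groups. Signals of different probes are not comparable as levels.

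Promoter sequences are shown for Dusp6, Dusp1 and Dusp14, the 3 genes of smallest p for L-DOPA against lesioned saline, and for Dusp5, which carries a pair of serum response motifs. The windows run from 250 bases before to 50 bases after the annotated start, in the GRCr8 assembly of the rat, and are credited to RefSeq, whose table held windows for 9 of the 10 genes (12 windows, 3 for Dusp14 and 2 for Spry2) and none for Dusp4. Capitals mark matches, on either strand, to 6 motifs: the cAMP response element (CRE) TGACGTCA, its short form TGACG, which also lies inside the full one, the AP-1 motif TGANTCA, the ETS motif CCGGAA, the EGR motif GCGNGGGCG and the CArG box of serum response factor. The Dusp6 window, chr7:35979354-35979653 on the plus strand, holds none of the 6, and neither do those of Spry1 and Spred1.
Dusp6: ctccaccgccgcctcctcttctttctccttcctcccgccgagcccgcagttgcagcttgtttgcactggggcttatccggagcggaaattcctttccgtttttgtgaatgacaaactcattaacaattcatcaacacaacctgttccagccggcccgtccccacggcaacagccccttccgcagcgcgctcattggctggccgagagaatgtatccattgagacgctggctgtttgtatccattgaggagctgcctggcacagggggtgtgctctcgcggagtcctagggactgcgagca
The Dusp1 window, chr10:17184603-17184902 on the plus strand, holds the one full CRE found among the 12 windows, at positions -124 to -117 from the start, and a separate short form at -172 to -168.
Dusp1: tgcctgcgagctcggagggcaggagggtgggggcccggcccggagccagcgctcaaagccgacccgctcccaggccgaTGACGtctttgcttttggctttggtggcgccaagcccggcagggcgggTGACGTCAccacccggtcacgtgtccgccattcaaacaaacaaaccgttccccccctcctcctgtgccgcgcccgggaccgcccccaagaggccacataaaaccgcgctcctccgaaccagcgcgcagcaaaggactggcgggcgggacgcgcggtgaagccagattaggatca
Of the 3 Dusp14 windows the one printed, chr10:69452292-69452591 on the minus strand, holds the one AP-1 match found, at -89 to -83, with a short CRE form behind it.
Dusp14: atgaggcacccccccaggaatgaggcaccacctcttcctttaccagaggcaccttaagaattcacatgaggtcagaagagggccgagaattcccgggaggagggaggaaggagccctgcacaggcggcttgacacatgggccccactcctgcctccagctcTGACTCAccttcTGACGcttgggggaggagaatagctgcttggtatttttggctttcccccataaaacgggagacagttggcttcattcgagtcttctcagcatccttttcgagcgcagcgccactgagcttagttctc
The Dusp5 window, chr1:262543524-262543823 on the plus strand, has 2 CArG boxes side by side, from -82 to -63, with an EGR, a short CRE and an ETS match around them.
Dusp5: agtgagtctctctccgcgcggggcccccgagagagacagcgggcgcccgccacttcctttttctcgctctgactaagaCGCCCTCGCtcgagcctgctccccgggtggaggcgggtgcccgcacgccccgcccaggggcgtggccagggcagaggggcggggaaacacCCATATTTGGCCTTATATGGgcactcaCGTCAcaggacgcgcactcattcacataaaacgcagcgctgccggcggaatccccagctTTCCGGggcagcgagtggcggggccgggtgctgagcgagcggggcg
A full CRE occurs in 1.83% of all 33469 promoter windows of the table, the short form in 21.2%, AP-1 in 7.33%, ETS in 15%, EGR in 4.98% and the CArG box in 1.64%. Among the 12 windows here the short CRE form was found in 5, ETS in 4 and EGR in 4. A match is a run of letters and not a shown binding site, and none of these data measure binding.

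**Figure D1:**
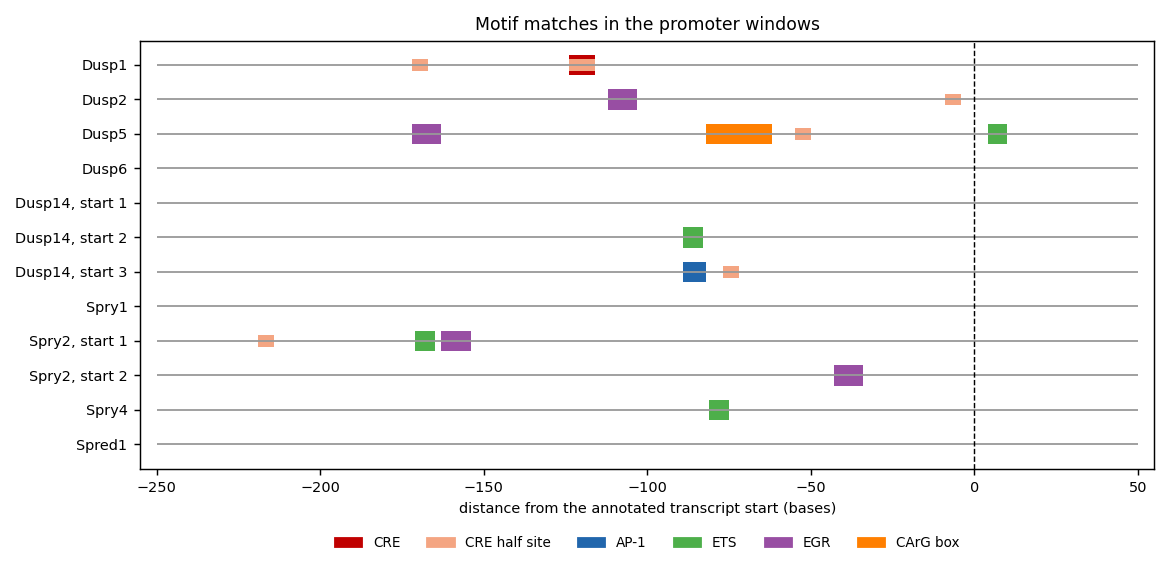
Positions of the motif matches in the 12 promoter windows, with distance from the annotated start in bases on the x axis and 1 line per window. Dusp1 alone has a full CRE (-124 to -117), Dusp5 alone has CArG boxes (-82 to -63), and no match lies in the Dusp6 window.

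Dusp6 encodes the cytoplasmic phosphatase that acts on ERK and on hardly any other MAP kinase. Its signals were 0.68, 0.86 and 1.11 in the zonisamide group, 0.85, 1.35 and 1.61 in the L-DOPA group, 0.46, 0.54 and 0.22 in lesioned saline, and 0.96, 0.92 and 1.13 in non-lesioned saline. The 3 lesioned saline arrays were the 3 lowest of the 12, below every array of the other 3 groups. The L-DOPA group averaged 1.27 ± 0.39 (SD, n = 3), against 0.41 ± 0.17 (SD, n = 3) in lesioned saline. That difference of 0.86 ± 0.21 (SE) is 1.81-fold and had an unadjusted limma p of 0.00194, the smallest of the 9 genes in any comparison, but the limma p adjusted over all 19412 features was 0.129. Lesioned saline also differed from the non-lesioned side, whose mean was 1.00 ± 0.11 (SD, n = 3), by -0.60 ± 0.21 (SE), with a limma adjusted p of 0.517, and by -0.35 with slide as a block.

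The zonisamide group, at 0.88 ± 0.22 (SD, n = 3), also stood above lesioned saline for Dusp6 on every array, by 0.47 ± 0.21 (SE, limma adjusted p = 0.67). It did not separate from the L-DOPA group, the difference being -0.38 ± 0.21 (SE, limma adjusted p = 0.504), although it was lower than its slide partner on all 3 shared slides, by -0.17, -0.49 and -0.49. That difference was -0.60 without L-DOPA replicate 1 (limma adjusted p = 0.178) and -0.079 without the 4 arrays of highest Ttr, a choroid plexus transcript. Comparisons that share lesioned saline or L-DOPA arrays are not independent of each other. On the slides with arrays of both, the L-DOPA minus lesioned saline difference was 0.38 and 0.81, and it was 0.67 with slide as a block. The L-DOPA replicate 1 array, one of the 2 with high Neurod6, was the lowest of its group, and without it the L-DOPA minus lesioned saline difference was 1.07 with a limma adjusted p of 0.041, the lowest of 19 other settings, whose highest was 0.901. The part of cortical RNA in these values was not tested.

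A transcript of another tissue, Ttr, moved with these Dusp6 signals, at a Pearson's r of 0.70 over the 12 arrays. For the deviations from the group means, r was 0.49. Dusp6 was not alone in this: Spred1 had an r with Ttr of -0.66 over the 12 arrays and -0.71 within the groups. Transthyretin (Ttr), made by the choroid plexus, stood at 4.28, 2.72 and 6.67 in the zonisamide group, 4.31, 7.27 and 6.89 in the L-DOPA group, -0.74, 4.35 and 3.30 in lesioned saline, and 2.32, 3.05 and 6.73 in non-lesioned saline. In 3 of the 4 groups the array with the highest Ttr was also the one with the highest Dusp6. In the L-DOPA group replicate 2 had the highest Ttr and replicate 3 the highest Dusp6. With Ttr as a covariate the Dusp6 difference between L-DOPA and lesioned saline was 0.65 ± 0.25 (SE), and without the 4 arrays of highest Ttr, which leaves 1 L-DOPA array, it was 0.44 ± 0.20 (SE). The part of choroid plexus RNA in the Dusp6 values was not tested.

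**Figure D2:**
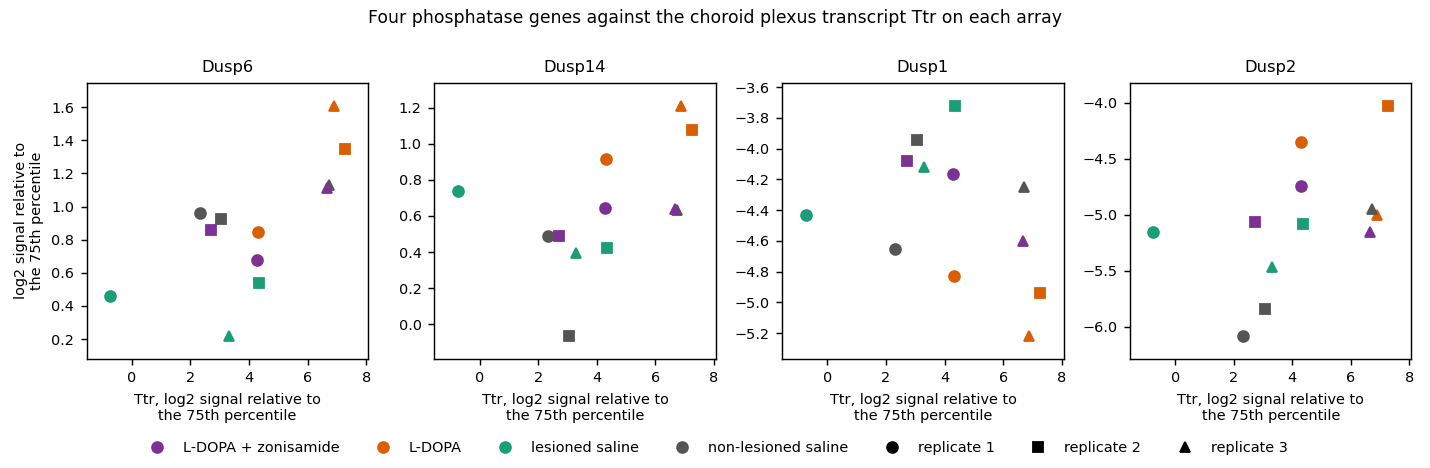
Signals of Dusp6, Dusp14, Dusp1 and Dusp2 (y axes) against Ttr (x axis), both log2 relative to the array's 75th percentile, with 1 point per array, colour for the group and shape for the replicate. The 3 lesioned saline arrays have the 3 lowest Dusp6 signals (0.46, 0.54 and 0.22), at Ttr of -0.74, 4.35 and 3.30.

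Dusp14 encodes a small atypical member of the family without the kinase-docking domain of the classical phosphatases. Its signals were 0.64, 0.49 and 0.64 in the zonisamide group, 0.91, 1.07 and 1.21 in the L-DOPA group, 0.74, 0.42 and 0.40 in lesioned saline, and 0.49, -0.064 and 0.64 in non-lesioned saline. The 3 L-DOPA arrays were the 3 highest of the 12, above all arrays of each other group. The L-DOPA group averaged 1.07 ± 0.15 (SD, n = 3) and lesioned saline 0.52 ± 0.19 (SD, n = 3), a difference of 0.55 ± 0.19 (SE), or 1.46-fold, with a limma adjusted p of 0.318. The zonisamide group averaged 0.59 ± 0.088 (SD, n = 3), which was -0.48 ± 0.19 (SE) from the L-DOPA group, with a limma adjusted p of 0.348. The zonisamide array was the lower one on all 3 shared slides, by -0.27, -0.59 and -0.57. Zonisamide with L-DOPA and lesioned saline overlapped and differed by 0.072 ± 0.19 (SE). Lesioned and non-lesioned saline overlapped as well, at a difference of 0.16 ± 0.19 (SE).

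Dusp1 encodes the nuclear phosphatase, inducible as an immediate early gene, that acts on p38, JNK and ERK. Its signals were -4.16, -4.08 and -4.60 in the zonisamide group, -4.83, -4.94 and -5.22 in the L-DOPA group, -4.43, -3.72 and -4.12 in lesioned saline, and -4.65, -3.94 and -4.25 in non-lesioned saline. The pattern was the opposite of that of Dusp14, with the 3 L-DOPA arrays the 3 lowest of the 12. L-DOPA averaged -4.99 ± 0.20 (SD, n = 3) and lesioned saline -4.09 ± 0.36 (SD, n = 3), so the L-DOPA group was 1.87-fold lower, at -0.90 ± 0.25 on the log2 scale (SE, limma adjusted p = 0.179). The zonisamide group averaged -4.28 ± 0.28 (SD, n = 3), which was 0.71 ± 0.25 (SE) or 1.64-fold above the L-DOPA group, with a limma adjusted p of 0.263. On the shared slides the zonisamide array was higher each time, by 0.67, 0.86 and 0.61. The zonisamide group and lesioned saline overlapped, with a difference of -0.19 ± 0.25 (SE).

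The Dusp1 probe was dim, at 23.2 to 108 intensity units, although above background on all 12 arrays. With another background correction followed by quantile normalization, the 2 differences shrank to -0.36 for L-DOPA against lesioned saline and 0.34 for zonisamide against L-DOPA, in the same directions. The lesion difference of 0.19 ± 0.25 (SE) turned to -0.055 under quantile normalization.

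Dusp2 encodes a nuclear phosphatase best known from activated immune cells. Its signals were -4.75, -5.07 and -5.15 in the zonisamide group, -4.35, -4.02 and -5.01 in the L-DOPA group, -5.15, -5.08 and -5.47 in lesioned saline, and -6.08, -5.84 and -4.95 in non-lesioned saline. The L-DOPA arrays lay above the lesioned saline arrays, with replicate 3 closest to them at a gap of under 0.1. The means were -4.46 ± 0.50 in the L-DOPA group and -5.23 ± 0.21 in lesioned saline (SD, n = 3 each), which differed by 0.77 ± 0.32 (SE, limma adjusted p = 0.399). On the 2 slides with arrays of both the difference was 0.80 and 1.06. The zonisamide group did not separate from the L-DOPA group (-0.53 ± 0.32, SE) or from lesioned saline (0.24 ± 0.32, SE). The Dusp2 probe was also dim, at 16.5 to 76.4 intensity units. With the other background correction and quantile normalization, L-DOPA against lesioned saline shrank to 0.41, and zonisamide against L-DOPA to -0.18.

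Dusp5 encodes the nuclear phosphatase that acts on ERK. Its signals were -1.80, -1.47 and -1.48 in the zonisamide group, -1.87, -0.98 and -0.88 in the L-DOPA group, -1.20, -1.77 and -1.88 in lesioned saline, and -1.27, -0.92 and -1.51 in non-lesioned saline. L-DOPA replicate 1 stood apart from the other 2 arrays of its group, as it did for Dusp6, and no pair of groups compared separated. The difference of L-DOPA from lesioned saline was 0.38 ± 0.29 (SE), made of -0.67 on the first slide and 0.80 on the second. Without L-DOPA replicate 1 it was 0.69 (limma adjusted p = 0.243), and without the 4 arrays of highest Ttr, which leaves only that replicate in its group, it was -0.25. Zonisamide with L-DOPA minus L-DOPA was -0.34 ± 0.29 (SE) for Dusp5, -0.66 without L-DOPA replicate 1 (limma adjusted p = 0.262) and 0.23 without the 4 arrays of highest Ttr.

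Dusp4 encodes another nuclear phosphatase induced by ERK. It was at the edge of detection: its probe was well above background on 3 of 3 zonisamide arrays, 1 of 3 L-DOPA arrays, 1 of 3 lesioned saline arrays and 2 of 3 non-lesioned arrays. It entered the tests only through the zonisamide group. The signals were -7.01, -6.18 and -6.24 in the zonisamide group, -6.51, -6.66 and -7.15 in the L-DOPA group, -6.94, -7.47 and -6.16 in lesioned saline, and -8.09, -6.71 and -7.48 in non-lesioned saline. All groups compared overlapped, and the 4 differences lay between 0.086 and 0.57 with standard errors of 0.42.

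**Figure D3:**
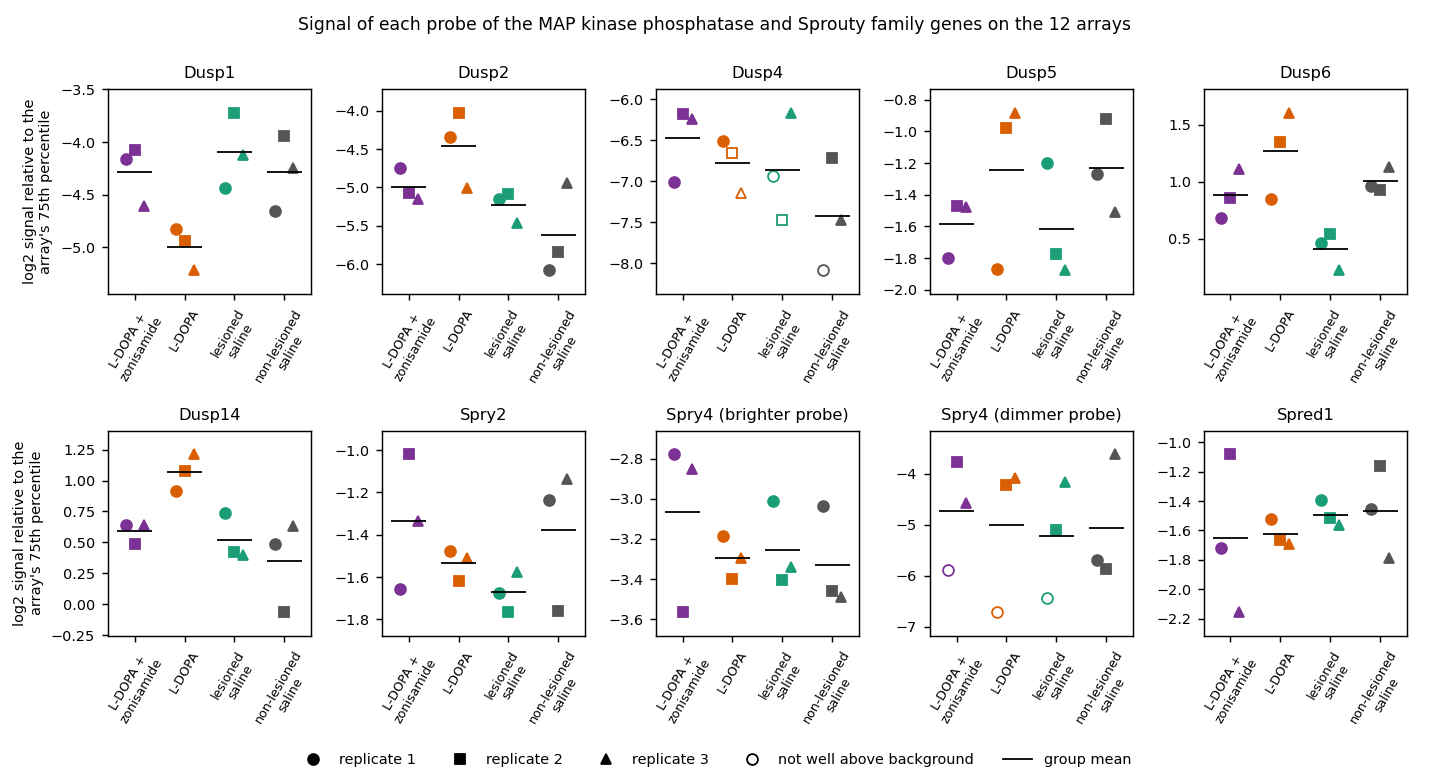
Signal of each of the 10 probes on the 12 arrays, as log2 relative to the array's 75th percentile on the y axis, with the groups on the x axis, shape for the replicate, a line at the group mean and open symbols where the probe was not well above background. Dusp6 has its 3 lowest signals in lesioned saline (0.46, 0.54 and 0.22), while the 3 L-DOPA arrays are the highest for Dusp14 (0.91, 1.07 and 1.21) and the lowest for Dusp1 (-4.83, -4.94 and -5.22).

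Sprouty proteins block the step from receptor tyrosine kinases to Ras and Raf, and Spred1 binds Ras and the Ras inhibitor neurofibromin. Spry2 had signals of -1.66, -1.02 and -1.33 in the zonisamide group, -1.48, -1.62 and -1.51 in the L-DOPA group, -1.67, -1.77 and -1.58 in lesioned saline, and -1.23, -1.76 and -1.14 in non-lesioned saline. Its arrays overlapped in all 4 comparisons, and the largest of the 4 differences by size was 0.33 ± 0.20 (SE) for zonisamide with L-DOPA against lesioned saline. Within the L-DOPA and lesioned saline groups Spry2 varied little, with SDs of 0.074 and 0.095 (n = 3 each), against 0.32 in the zonisamide group.

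The brighter Spry4 probe read -2.78, -3.56 and -2.85 in the zonisamide group, -3.18, -3.40 and -3.30 in the L-DOPA group, -3.01, -3.41 and -3.34 in lesioned saline, and -3.04, -3.46 and -3.49 in non-lesioned saline. Its 4 differences lay between -0.040 and 0.23, with standard errors of 0.23, and their arrays overlapped. The dimmer Spry4 probe was above background on 9 of 12 arrays and spread far more, with SDs of 1.07 to 1.48 within the groups. For it the lesion difference was -0.17 and the L-DOPA difference 0.22, against 0.074 and -0.040 for the brighter probe, so the 2 probes disagreed in sign within their errors of 0.91 and 0.23.

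Spred1 read -1.72, -1.08 and -2.16 in the zonisamide group, -1.52, -1.67 and -1.69 in the L-DOPA group, -1.39, -1.52 and -1.56 in lesioned saline, and -1.45, -1.16 and -1.79 in non-lesioned saline. The zonisamide arrays spanned those of every other group. None of its 4 differences exceeded its standard error of 0.25, from -0.16 for zonisamide with L-DOPA against lesioned saline to -0.025 for the lesion.

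Set side by side, the lesion comparison asks what loss of dopamine input did to these genes. None of the 9 passed the adjusted limma test for lesioned against non-lesioned saline, where the share of all features that passed was 0%. At an unadjusted p under 0.05 it was 1 gene, Dusp6, against 8.48% of all features. Dusp6 was also the 1 gene whose groups did not overlap, against 17% of all features (8.66% higher and 8.34% lower), a share near 1 gene in 9. The median over the 9 genes was 0.074, against 0.045 over all features.

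For L-DOPA against lesioned saline, none of the 9 genes passed the adjusted limma test, against 0.433% of all features. At an unadjusted p under 0.05 there were 4 genes, Dusp6, Dusp14 and Dusp2 higher and Dusp1 lower, against 11.3% of all features. The same 4 genes had groups that did not overlap, 3 higher and 1 lower, against 22.4% of all features (11.7% higher and 10.8% lower). The other 2 phosphatases, Dusp4 and Dusp5, overlapped, as did Spry2, Spry4 and Spred1. The count at an unadjusted p under 0.05 was 1 to 4 in 19 other settings. It was 2 with Ttr as a covariate, where Dusp14 had 0.49 ± 0.26 (SE) and Dusp2 0.55 ± 0.40 (SE), and 2 without lesioned saline replicate 3. The lowest count came without the 4 arrays of highest Ttr, which leaves 1 L-DOPA array. The differences there were 0.44 for Dusp6, 0.40 for Dusp14, 0.88 for Dusp2 and -0.74 for Dusp1. In the main fit the median over the 9 genes was 0.14, against -0.027 over all features.

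For zonisamide with L-DOPA against L-DOPA, none of the 9 genes passed, against 0.479% of all features, a count of 93 that was 13 with the replicate number as a block. At an unadjusted p under 0.05 there were 2 genes, Dusp1 higher and Dusp14 lower, against 12.4% of all features. They were also the 2 genes whose groups did not overlap, against 17.3% of all features (6.82% higher and 10.5% lower). With the replicate number as a block, Dusp1 differed by 0.71 ± 0.22 (SE, limma adjusted p = 0.248) and Dusp14 by -0.48 ± 0.19 (SE, limma adjusted p = 0.37). The count at an unadjusted p under 0.05 was 4 without L-DOPA replicate 1, where Dusp5 and Dusp6 joined. It was 1 with Ttr as a covariate or without any other single array of the drug groups. Leaving out the 4 arrays of highest Ttr leaves 1 L-DOPA array, so no count is given for it. The differences there were 0.71 for Dusp1 and -0.35 for Dusp14. In the main fit the median was -0.028 over the 9 genes and -0.034 over all features. For zonisamide with L-DOPA against lesioned saline none passed, against 0% of all features. Only Dusp6, which was higher, had an unadjusted p under 0.05 and groups that did not overlap, against 7.34% and 18.1% (6.57% higher and 11.6% lower) of all features. The medians were 0.19 over the 9 genes and -0.051 over all features.

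**Figure D4:**
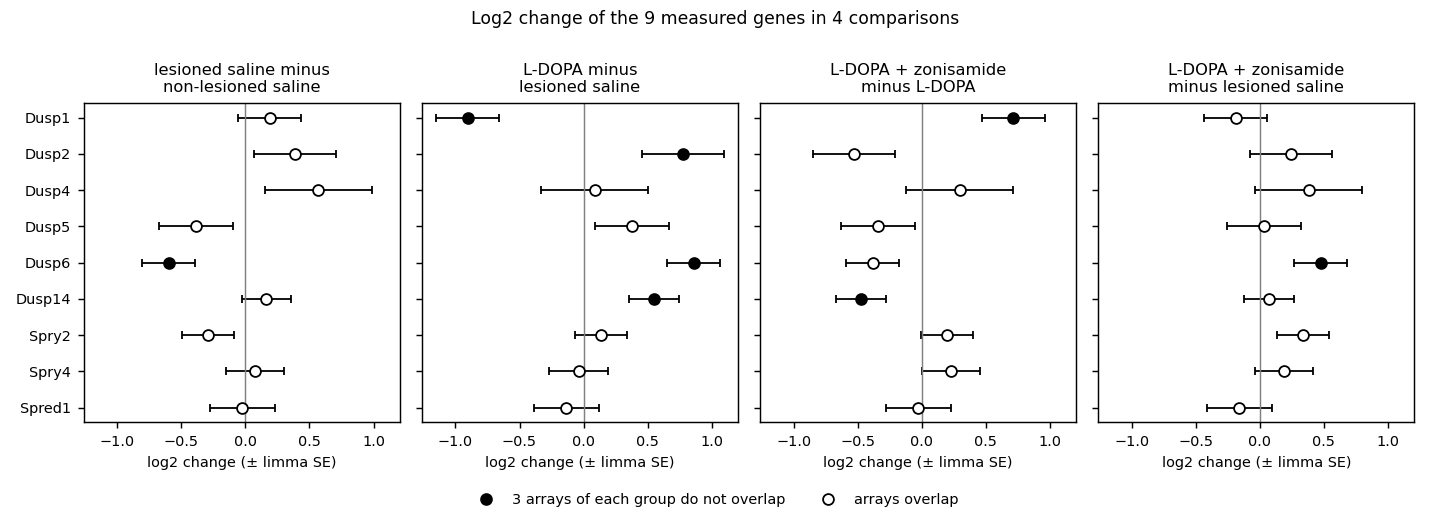
Log2 change (x axes) of the 9 measured genes in the 4 comparisons, 1 panel each, with limma's standard error as bars and filled points where the 3 arrays of each group do not overlap. L-DOPA against lesioned saline has 4 filled points (Dusp6 0.86, Dusp2 0.77, Dusp14 0.55 and Dusp1 -0.90), and zonisamide with L-DOPA against L-DOPA has 2 (Dusp1 0.71 and Dusp14 -0.48).

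The rest of the pathway was read from lists of its known genes. Of 6 other MAP kinase phosphatases 4 were tested, and of 9 other feedback inhibitors of receptor tyrosine kinases 4 were tested. None of these 8 had an unadjusted p under 0.05 in any of the 4 comparisons. The relays of the ERK cascade (17 of 22 tested) and of the p38 and JNK cascades (10 of 11 tested) had no gene past the adjusted limma test in any comparison. The same holds for 13 tested ERK output genes of 15 listed. Among 19 tested growth factors and receptors of 21 listed, 1 gene passed, in 1 comparison.

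That gene was Gdnf, which encodes a trophic factor of dopamine neurons. It read -4.77, -4.46 and -4.32 in the zonisamide group, -5.24, -6.31 and -5.63 in the L-DOPA group, -3.96, -4.44 and -4.06 in lesioned saline, and -3.94, -4.12 and -4.34 in non-lesioned saline. As for Dusp1, the 3 L-DOPA arrays were the 3 lowest of the 12. Its signals were as low as those of Dusp1 and Dusp2, though well above background on all 12 arrays. Gdnf fell by 1.58 ± 0.27 on the log2 scale (SE) in the L-DOPA group against lesioned saline (limma adjusted p = 0.0421), a call that 5 of 19 other settings kept. Over the 19 settings that difference ran from -1.82 to -0.56. In the zonisamide group Gdnf was 1.21 ± 0.27 (SE) above the L-DOPA group (limma adjusted p = 0.0849).

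Among the ERK output genes, Ier3, an immediate early response gene, read -1.88, -2.43 and -2.22 in the zonisamide group, -1.47, -1.01 and -1.92 in the L-DOPA group, -2.61, -2.95 and -2.36 in lesioned saline, and -3.06, -2.86 and -2.96 in non-lesioned saline. The L-DOPA arrays lay above lesioned saline without overlap, as for Dusp6, by 1.18 ± 0.25 (SE, limma adjusted p = 0.0897). Etv5, a transcription factor gene of the ETS family that follows growth factor signalling, read 2.67, 3.11 and 2.87 in the zonisamide group, 2.57, 2.19 and 1.72 in the L-DOPA group, 1.91, 2.34 and 2.04 in lesioned saline, and 2.67, 2.82 and 2.50 in non-lesioned saline. Lesioned saline lay below the non-lesioned side without overlap, as for Dusp6, by -0.57 ± 0.23 (SE, limma adjusted p = 0.571). Where Dusp6 had its highest mean in the L-DOPA group, Etv5 had it in the zonisamide group, 0.72 ± 0.23 (SE) above L-DOPA (limma adjusted p = 0.221). In that comparison 9 of the 13 ERK output genes were below 0, with a median of -0.36 against -0.034 over all features. At an unadjusted p under 0.05 there were 6, 2 higher and 4 lower, against 12.4% of all features. The smallest p was that of Epha2, lower without overlap by -0.84 ± 0.21 (SE, limma adjusted p = 0.122).

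Nr4a1 and Fos had their lowest means in the zonisamide group. Nr4a1, an immediate early gene for a nuclear receptor, read 0.77, 1.31 and 0.15 in the zonisamide group, 1.34, 1.88 and 1.46 in the L-DOPA group, 2.09, 1.91 and 2.20 in lesioned saline, and 2.31, 1.73 and 1.73 in non-lesioned saline. The 3 zonisamide arrays were the 3 lowest of the 12, and the difference from lesioned saline was -1.32 ± 0.29 (SE, limma adjusted p = 0.493). Fos, an immediate early gene for a subunit of AP-1, was -1.09 ± 0.32 (SE) in zonisamide with L-DOPA against lesioned saline, without overlap (limma adjusted p = 0.621). Of the 13 genes 5 had an unadjusted p under 0.05 in that comparison, 1 higher (Etv5) and 4 lower, against 7.34% of all features. Over the whole list 8 genes were above 0 there and 5 below, with a median of 0.12 against -0.051 over all features. For L-DOPA against lesioned saline, 2 of the 13 lay higher without overlap and 2 lower, with Nr4a1 among the lower at -0.51 ± 0.29 (SE). The shares of all features were 11.7% higher and 10.8% lower.

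In the cascades the smallest p for L-DOPA against lesioned saline belonged to Map2k6, the kinase that activates p38, and Grb2, the adaptor that links receptors to Ras. Like Dusp1, Map2k6 had its lowest mean in the L-DOPA group, at -0.74 ± 0.20 (SE) for L-DOPA against lesioned saline and 0.84 ± 0.20 (SE) for zonisamide against L-DOPA (limma adjusted p = 0.187 and adjusted p = 0.113). Like Dusp14, Grb2 had its highest mean there, at 0.63 ± 0.19 (SE) and -0.55 ± 0.19 (SE) (limma adjusted p = 0.231 and adjusted p = 0.256). Kdr, the endothelial receptor for VEGF, was 1.30 ± 0.29 (SE) higher in L-DOPA than in lesioned saline and -1.45 ± 0.29 (SE) in zonisamide against L-DOPA (limma adjusted p = 0.109 and adjusted p = 0.0664).

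The summed level of endothelial markers, like Dusp14 and Kdr, was lower on every zonisamide array than on any L-DOPA array. Taken singly, all 5 tested markers were below 0 in that comparison, and 3 lay lower without overlap, against 10.5% of all features. Against lesioned saline all 5 were below 0 as well, and 3 lay lower without overlap, against 11.6% of all features. Dusp14 and Kdr, in contrast, overlapped lesioned saline in the zonisamide group. The 5 tested of 6 had summed log2 levels of 0.84 to 1.04 in the zonisamide group, 1.73 to 2.05 in the L-DOPA group, 1.36 to 1.76 in lesioned saline and 1.02 to 1.39 in non-lesioned saline. Blood cell markers, 4 tested of 6, had summed log2 levels of 2.82 to 4.20 in the zonisamide group, 4.21 to 5.10 in the L-DOPA group, 4.27 to 4.60 in lesioned saline and 4.12 to 4.72 in non-lesioned saline. This sum was lower on the zonisamide arrays than in the L-DOPA group and in lesioned saline, with a gap of under 0.1 to each. Taken singly, all 4 blood markers were below 0 against L-DOPA, and 1 lay lower without overlap, against 10.5% of all features. Against lesioned saline 2 were above 0 and 2 below, and 1 lay lower without overlap, against 11.6% of all features. The part of either cell type in the Dusp values was not tested.

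**Figure D5:**
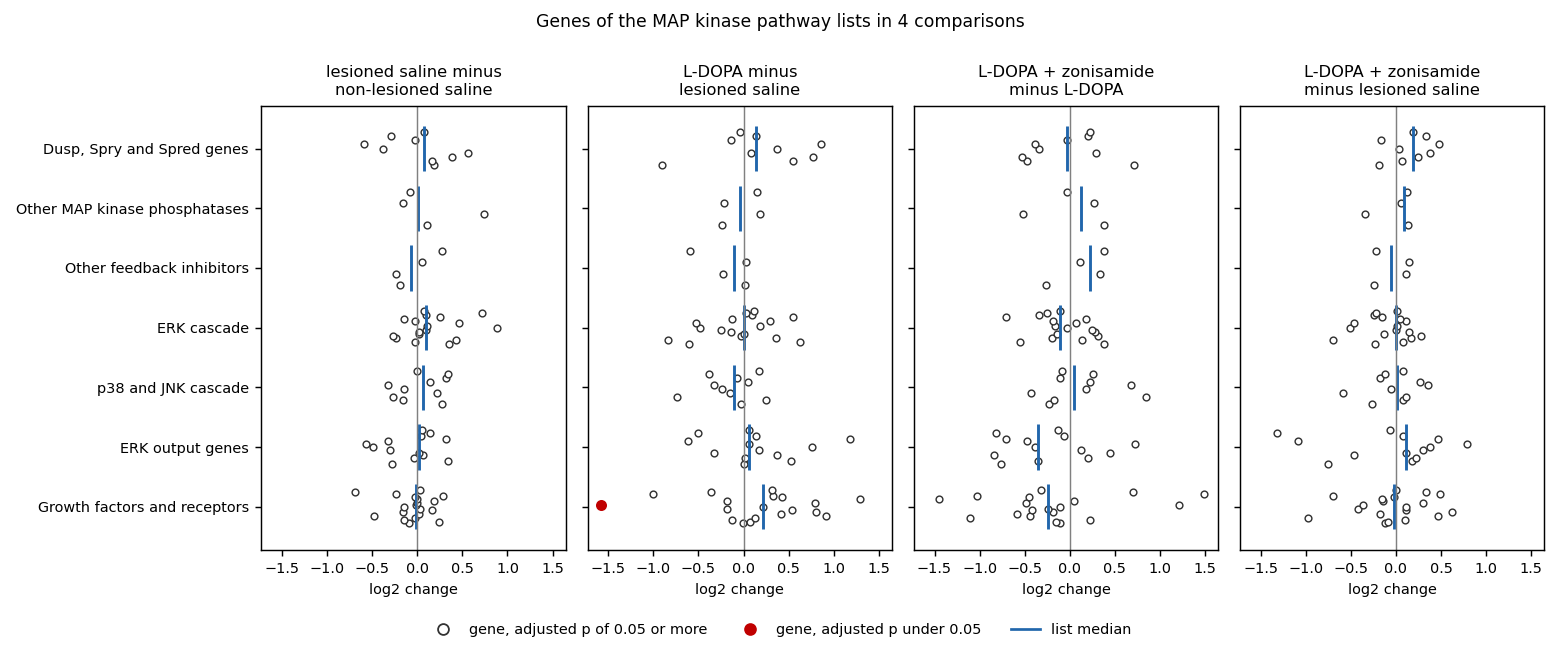
Log2 change (x axes) of each tested gene of the pathway lists in the 4 comparisons, 1 open point per gene, a filled point for an adjusted p under 0.05 and a line at the list's median. The single filled point is Gdnf at -1.58 for L-DOPA against lesioned saline, and the median of the 9 Dusp, Spry and Spred genes there is 0.14.

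Among the features with a symbol, other than the genes followed here, those with the 12-array profiles most like each gene are given as a description. Pearson's r over the 12 arrays is given with Spearman's rho beside it. Dusp6 was most like Rab5if (r 0.95, rho 0.93) and Trib2 (r 0.92, rho 0.83), and Dusp14 most like Grem1 (r 0.94, rho 0.94) and Acss2 (r 0.94, rho 0.92). Dusp1 was most like Ak7 (r 0.86, rho 0.84) and Khdrbs2 (r 0.85, rho 0.78), and Dusp2 most like Ucp2 (r 0.90, rho 0.83) and Ccdc68 (r 0.86, rho 0.92). Spry4 was most like Trmt10c (r 0.93, rho 0.89), Spred1 like Gorasp1 (r 0.92, rho 0.78), Spry2 like Dnaaf4 (r 0.89, rho 0.87), Dusp5 like Stat5b (r 0.85, rho 0.86) and Dusp4 like Slc6a2 (r 0.84, rho 0.73). The 12 arrays are 4 groups that share slides and tissue makeup. The closest profiles were picked from the 11110 features with a symbol, less the genes themselves, so such values say nothing about shared control.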

How the data were processed

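Probe values are intensities. The authors deposited scanner files from Agilent Feature Extraction, version 10.7.3.1 in the headers, whose processed signal had its background subtracted and a spatial trend removed but, per the file headers, no scaling across arrays. The deposited value table held identical intensity numbers on the 62976 spots, to a relative tolerance of 1e-06. From the deposited intensity, log2 was taken and each array's 75th percentile over non-control spots subtracted. Outlier spots were dropped and repeated spots of a probe averaged. A probe entered the tests if every array of some group marked it well above background (a share of spots of 0.5 or more), which left 21469 probes. The probe with the highest mean signal stood for a gene, giving 19412 features, 11110 with a RefSeq symbol.

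A single limma 3.58.1 model (R 4.3.3, package data.table at version 1.17.8), checked on simulated data, was fitted to all 12 arrays with 4 groups (8 residual degrees of freedom). The tests are two-sided with Benjamini-Hochberg adjustment over all features and a threshold of 0.05, and errors are moderated standard errors. No exact permutation test is given, since 3 against 3 arrays allow no p under 0.1. Replicate 1 of all groups shared a slide, as did replicate 2 of the 3 lesioned groups, and replicate 3 of both drug groups with non-lesioned replicate 2. Same-numbered zonisamide and L-DOPA arrays thus lay together, and their deviations from the group means correlated at 0.37, 0.19 and 0.25, so the numbers pair these arrays. The main fit does not use this pairing, which enters only the differences within slides and the replicate and slide blocks. Same-numbered drug and lesioned saline arrays shared a slide for replicates 1 and 2 only. Their correlations were 0.20 and -0.11 for L-DOPA, and 0.10 and -0.18 for zonisamide with L-DOPA. Of the saline groups only replicate 1 shared a slide, at 0.080. The numbers were not taken as pairs in these comparisons, and the labels do not say whether both saline groups come from the same rats.

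The genes and lists were chosen with earlier results of these data known. Named were all 10 genes, every list gene that passed, and from each list up to 3 genes of smallest p in a comparison spoken of. Also named were, per gene, up to 2 most alike features that had a symbol. Alternatives were quantile normalization, normexp background correction (offset 50) with quantile normalization, other probe filters and summaries, only the groups compared, replicate and slide blocks, and leaving out each array. Chosen after seeing the data were Ttr as covariate, and leaving out the 4 arrays of highest Ttr or the 2 drug arrays whose replicate-spot spread exceeded 20%.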

Additional observations from a re-analysis of the deposited data

How the results depend on the processing

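The number of arrays and, for Dusp1, Dusp2 and Dusp4, a signal near background limit these values. None of the 9 genes passed in any setting for 3 comparisons. For L-DOPA against lesioned saline the count was 0 to 1 when each array was left out in turn, the 1 being Dusp6 without L-DOPA replicate 1. A replicate block leaves each difference as it is, since each number holds 1 array of every group, and changes only the error. With it the count was 0, and Dusp6 (0.86) had a limma adjusted p of 0.172. Dusp6, Dusp14, Dusp1 and Dusp2 kept their direction in the 18 settings other than this block for L-DOPA against lesioned saline and for zonisamide against L-DOPA, Dusp6 also in the 17 for the lesion. None of the differences whose sign turned had an unadjusted p under 0.05 to begin with, and the cause was not tested.

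Quantile normalization turned the lesion difference for Dusp1 (-0.0545) and Spry4 (-0.12), that of L-DOPA for Spry4 (0.0218), that of zonisamide against L-DOPA for Spred1 (0.0431) and that of both drugs against saline for Dusp1 (0.0313). It put the median of all features at -0.088 for the lesion, against 0.045 before, and at 0.066 for both drugs against saline, against -0.051 before. Normexp turned the lesion difference for Dusp1 (-0.033), Dusp2 (-0.0684), Dusp14 (-0.0717) and Spry4 (-0.0944), that of L-DOPA for Dusp4 (-0.00385) and Spry4 (0.0543), and for Spred1 that of zonisamide against L-DOPA (0.163) and against saline (0.0787). The mean of the Spry4 probes gave -0.0476 for the lesion and 0.0903 for L-DOPA. For Dusp5, both drugs against saline gave -0.204 with slide as a fixed block and -0.00161 as a random one. With Ttr as a covariate, L-DOPA gave 0.057 for Spry4 and 0.263 for Spred1, and both drugs against saline 0.0707 for Spred1. Without the 4 arrays of highest Ttr, Spry4 had -0.00562 for the lesion and 0.0704 for L-DOPA, Dusp5 -0.251 for L-DOPA, 0.232 for zonisamide against L-DOPA and -0.0189 against saline, Dusp4 -0.0836 for zonisamide against L-DOPA, and Spred1 0.118 against L-DOPA and 0.0898 against saline. Without the 2 drug arrays of wide spot spread, zonisamide against L-DOPA gave -0.00888 for Dusp4 and 0.191 for Spred1, and against saline -0.0189 for Dusp5 and 0.0898 for Spred1.

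Leaving out each array in turn, the lesion difference ran from -0.0439 to 0.305 for Dusp14, -0.184 to 0.128 for Spred1 and -0.0462 to 0.219 for Spry4. That of L-DOPA ran from -0.221 to 0.435 for Dusp4 and -0.116 to 0.0808 for Spry4, that of zonisamide against L-DOPA from -0.313 to 0.224 for Spred1, and that against saline from -0.0968 to 0.241 for Dusp5 and -0.447 to 0.0898 for Spred1. Dusp4 was not tested under the filter on all 12 arrays. Over all features, calls for L-DOPA numbered 84 and ran from 0 (only the groups compared, slide as a fixed block, Ttr as a covariate) to 210, and those for zonisamide against L-DOPA numbered 93 and ran from 0 to 253. They were 34 and 13 with the replicate block, and reached 17 for the lesion and 3 for both drugs against saline, where none passed at first.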
